A study of Homo sapiens with 13 samples.

Results

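The genes described here are the 7 DUOX and NADPH oxidase components DUOX1, DUOX2, DUOXA1, DUOXA2, NCF1, CYBA and CYBB, chosen by gene symbol from 23637 genes in the RNA tables. They were measured in TE-7, an established human cell line labelled as esophageal epithelium. Cells were grown in RPMI with fetal calf serum, and the treated cultures received the cytokine interleukin-13 (IL-13) in the medium at 100 ng/ml. RNA libraries cover 2, 6 and 24 hr in IL-13 cells and in control cells, and ChIP libraries of H3K27Ac, H3K9Ac and H3K4me3, histone marks found at active genes, cover 6 hr in IL-13 and control cells. Each group is 1 library, so a difference within a time has no replicate check.

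NADPH oxidases pass electrons from NADPH to oxygen. DUOX1 and DUOX2 are calcium-regulated enzymes of the apical membrane of epithelia that release hydrogen peroxide, and they leave the endoplasmic reticulum only with their maturation factors DUOXA1 and DUOXA2. CYBB is the catalytic subunit of the phagocyte oxidase, CYBA is the membrane partner that stabilises it and related NOX enzymes, and NCF1 is the cytosolic organiser that starts its assembly. In airway epithelium DUOX1 is known to respond to type 2 cytokines and DUOX2 to interferon-gamma.

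The DUOX genes form a compact cluster on chromosome 15, with positions given in hg19. DUOX2 spans 45384852 to 45406359 on the minus strand and DUOXA2 spans 45406523 to 45410301 on the plus strand, so their starts lie head to head, 164 bp apart. DUOXA1 spans 45409686 to 45422057 on the minus strand and DUOX1 spans 45422192 to 45457774 on the plus strand, with starts 135 bp apart. The 3′ ends of DUOXA2 and DUOXA1 overlap by 616 bp on opposite strands. Whether reads were counted by strand is not given in the sources used here, so reads from the overlap cannot be assigned with certainty between these maturation factors. NCF1 lies on chromosome 7 from 74188309 to 74203659 on the plus strand, CYBA on chromosome 16 from 88709697 to 88717492 on the minus strand, and CYBB on chromosome X from 37639270 to 37672714 on the plus strand. NCF1 has the near-identical copies NCF1B and NCF1C, which can share its reads.

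The sequences of a start from each head-to-head pair are shown because the histone marks below differ between the pairs. They come from RefSeq on build GRCh38.p14 and run from 250 bases before to 50 bases after the start, with CG dinucleotides and TATAAA in capitals. The DUOX1 window is chr15:45129744-45130043 on the plus strand, and the DUOXA2 window is chr15:45114076-45114375 on the plus strand.
DUOX1: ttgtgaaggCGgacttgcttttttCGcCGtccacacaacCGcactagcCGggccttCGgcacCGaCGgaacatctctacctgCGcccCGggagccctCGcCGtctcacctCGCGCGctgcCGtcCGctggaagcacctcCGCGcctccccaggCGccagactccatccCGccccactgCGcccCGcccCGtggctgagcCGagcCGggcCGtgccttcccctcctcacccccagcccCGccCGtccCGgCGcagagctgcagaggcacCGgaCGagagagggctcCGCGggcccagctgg
DUOXA2: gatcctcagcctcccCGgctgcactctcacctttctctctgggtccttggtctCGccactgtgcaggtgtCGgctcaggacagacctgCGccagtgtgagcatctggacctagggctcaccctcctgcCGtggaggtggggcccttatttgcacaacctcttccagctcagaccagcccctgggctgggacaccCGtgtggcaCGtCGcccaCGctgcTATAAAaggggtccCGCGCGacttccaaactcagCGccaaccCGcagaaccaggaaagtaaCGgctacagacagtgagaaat
The DUOX1 window overlaps the window of the nearer DUOXA1 start by 214 bases, and the DUOXA2 window overlaps that of DUOX2 by 253 bases. The DUOX1 window held 35 CG dinucleotides and was 73.0% G and C, and 85.9% of 35116 promoter windows held fewer CG. The DUOXA2 window held 15 CG dinucleotides and was 61.3% G and C, close to the median of 14 CG and 58.7%. TATAAA began 32 bases before the DUOXA2 start and was also in the DUOX2 window, read on the other strand, and 11.5% of all windows held these letters on either strand. TTC and GAA with 4 bases between them, the spacing that STAT6 favours, were found on either strand in 0 of the members' windows and in 6.44% of all windows. With 3 bases between them, the spacing of other STAT factors, they were in 0 of the members' windows and in 7.66% of all windows. The CYBA window held 23 CG at 72.7% G and C, that of NCF1 11 CG at 57.3%, and that of CYBB 1 CG at 37.7%.

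RNA levels were deposited as RPKM, a read count scaled to gene length and library size, which allows levels of different genes to be compared. CYBA was the most abundant member in every library, DUOXA1 and DUOX1 followed, then DUOX2 and DUOXA2, then NCF1, and CYBB was lowest. CYBA lay between 123 and 153 RPKM, above at least 95.2% of the genes that reached 1 RPKM in each library. CYBB lay between 0.0171 and 0.0554 RPKM, under the level of 1 RPKM used to call a gene compared. The cells thus held RNA for the membrane partner and for both DUOX enzymes, while RNA of the phagocyte catalytic subunit was near the limit of counting. At 24 hr, where depth can be read from the values, CYBB had 0.463 reads per kilobase with IL-13 and 0.232 in the control. DUOX1 exceeded DUOX2 in level in each library, by 2.54-fold, 3.12-fold and 2.94-fold in IL-13 libraries at 2, 6 and 24 hr, and by 2.40-fold, 2.51-fold and 3.77-fold in controls.

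**Figure D1:**
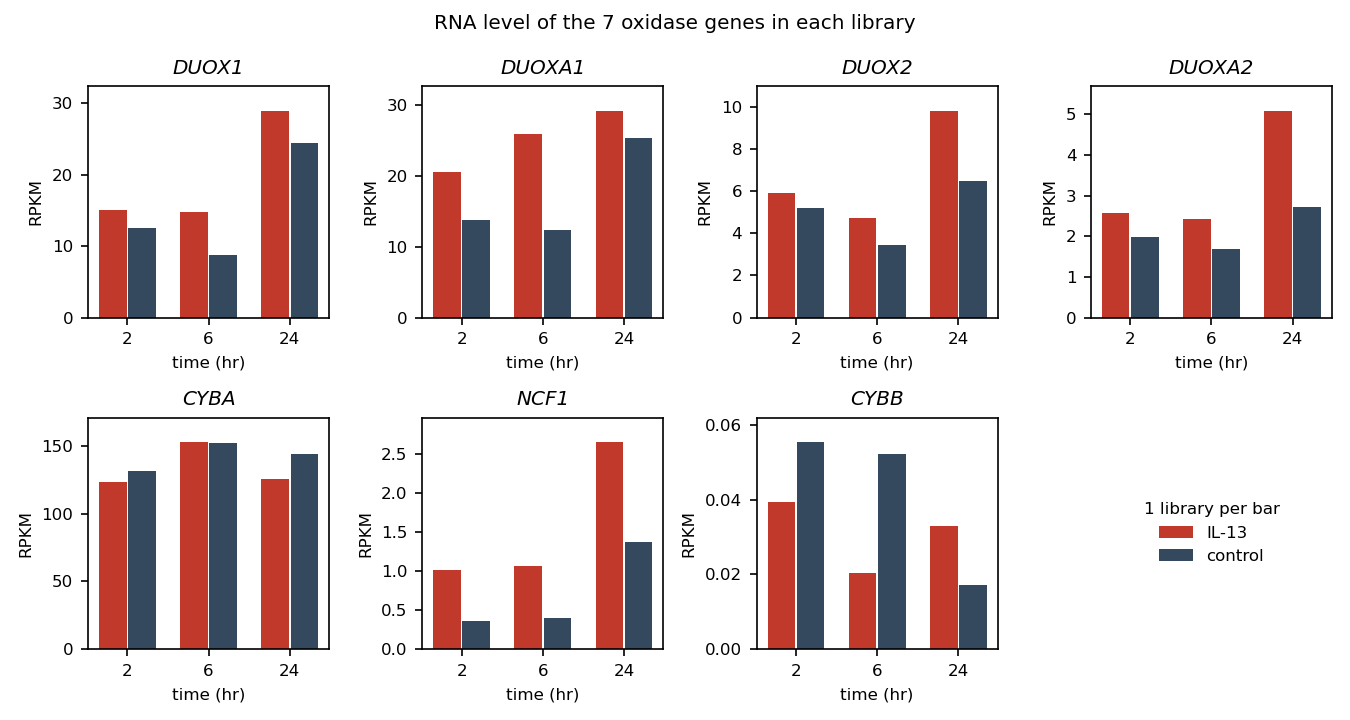
Bars give the RPKM of each gene (vertical axis, from 0) at 2, 6 and 24 hr (horizontal axis) in the IL-13 library (left bar) and the control library (right bar), with 1 library per bar. The IL-13 bar is the higher at all 3 times for DUOX1, DUOXA1, DUOX2, DUOXA2 and NCF1, and CYBA stays between 123 and 153 RPKM.

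The 7 epithelial markers, KRT5, KRT14, TP63 and EPCAM among them, reached 1 RPKM in all 6 libraries. Of 12 leukocyte markers, only CD68 and LAPTM5 reached 1 RPKM in any library. The highest value among the others was that of AIF1, 0.662 RPKM with IL-13 at 24 hr, where its control was listed at 0. PTPRC did not exceed 0.30 RPKM, and TYROBP and FCGR3A were listed at 0 throughout. Brain markers summed to 24.3 RPKM in the control at 2 hr and to between 6.25 and 8.01 RPKM in the other 5 libraries, and their part in the 2 hr comparison was not tested. VWF, an endothelial marker, was at 4.21 RPKM with IL-13 and at 0.943 RPKM in the control at 24 hr, and its part in the 24 hr comparison was not tested. The other endothelial markers at 24 hr were PECAM1, at 0.0480 RPKM with IL-13 and 0.0497 RPKM in the control, and CDH5, at 0.0173 RPKM with IL-13 and 0 in the control. The low values of short genes lay on steps that give depths of about 14000000 reads with IL-13 and 13600000 reads in the control at 24 hr. The libraries at 2 and 6 hr lay on sums of 2 steps, as means of 2 read sets of 13000000 to 26900000 reads would. A step and 359 identical values above 0 were common to the controls at 2 and 6 hr, so the same reads seem to have entered both controls and the ratios at those times are not independent. The RNA column headers at 24 hr follow another form than those at 2 and 6 hr.

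The first comparison asks how IL-13 altered the oxidase genes within each time. All 4 DUOX locus genes and NCF1 had more RNA with IL-13 than in the control at each time, by 1.13-fold to 2.80-fold, whereas CYBA ratios lay between 0.873-fold and 1.00-fold. The DUOX1 and DUOXA1 pair had its largest ratios at 6 hr, and the DUOX2 and DUOXA2 pair at 24 hr. A gene was called higher when log2 of the ratio of RPKM + 0.1 was at least 1 and the higher library reached 1 RPKM, a scale that understates changes of low genes. By that rule NCF1 was higher at 2 hr, NCF1 and DUOXA1 at 6 hr and 0 members at 24 hr, among 6 of 7 members that reached the minimum. Over all genes, 0.658% were called higher at 2 hr, 0.753% at 6 hr and 0.886% at 24 hr. No member was called lower, against 0.342%, 0.318% and 1.27% of all genes at these times.

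DUOX1, the enzyme, was at 15.0, 14.7 and 28.9 RPKM with IL-13 at 2, 6 and 24 hr, against 12.5, 8.69 and 24.4 RPKM in controls. Its IL-13 libraries at 2 and 6 hr were nearly level while the control at 6 hr was the lowest of the 6 libraries. The log2 ratios were 0.26, 0.75 and 0.25, and at 6 hr 98.9% of the genes compared had a lower ratio.

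DUOXA1, its maturation factor, was at 20.6, 26.0 and 29.2 RPKM with IL-13, against 13.7, 12.4 and 25.3 RPKM in controls. The IL-13 library at 6 hr was above the control at 24 hr, and the controls at 2 and 6 hr were the lowest values. The log2 ratios were 0.58, 1.06 and 0.21, which placed DUOXA1 above 98.4%, 99.4% and 83.2% of the genes compared. The 6 hr value is a 2.09-fold ratio and lies just past the 2-fold limit. In the authors' deposited table the log2 ratio of DUOXA1 at 6 hr was 1.07 with a p of 0.00376 and an adjusted p of 0.474.

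DUOX2 was at 5.89, 4.72 and 9.82 RPKM with IL-13, against 5.21, 3.46 and 6.47 RPKM in controls. Its log2 ratios were 0.18, 0.44 and 0.59, so that the 24 hr libraries held the largest ratio as well as the highest levels. In the authors' deposited table DUOX2 at 24 hr had a p of 0.00943 and an adjusted p of 0.460.

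DUOXA2, the maturation factor of DUOX2, was at 2.57, 2.43 and 5.09 RPKM with IL-13, against 1.98, 1.70 and 2.73 RPKM in controls. The IL-13 library at 24 hr stood apart from the other 5, none of which exceeded 2.73 RPKM. The log2 ratios were 0.36, 0.49 and 0.87, and 98.8% of the genes compared had a lower ratio at 24 hr. DUOXA2 was at 0.436 to 0.518 times the RPKM of DUOX2 with IL-13 and at 0.381 to 0.490 times in controls, whereas DUOXA1 was at 1.01 to 1.76 times the RPKM of DUOX1 with IL-13 and at 1.04 to 1.43 times in controls.

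NCF1, the organiser subunit p47phox, was at 1.01, 1.06 and 2.65 RPKM with IL-13, against 0.363, 0.394 and 1.37 RPKM in controls. These are ratios of 2.80-fold, 2.69-fold and 1.94-fold on low levels, and at 2 and 6 hr NCF1 reached the minimum of 1 RPKM only through the IL-13 library. With a pseudocount of 1 its log2 ratios at 2 and 6 hr were 0.56 and 0.56, under the 2-fold limit. In the authors' deposited table NCF1 had a p of 0.222 at 2 hr, 0.0465 at 6 hr and 0.10 at 24 hr, each with an adjusted p of 1. At 24 hr it had 37.2 reads per kilobase with IL-13 and 18.6 in the control. The copy NCF1B was at 0.518, 0.602 and 0.847 RPKM with IL-13 and at 0.242, 0.298 and 0.924 RPKM in controls. NCF1C was at 0.572, 0.867 and 2.01 RPKM with IL-13 and at 0.420, 0.533 and 1.77 RPKM in controls. Summed over the 3 genes, a sum chosen after the values had been seen, the plain ratios were 2.06-fold, 2.07-fold and 1.35-fold. The log2 ratios of RPKM + 0.1 were 0.97, 0.99 and 0.43, so by the rule used here the sum was not called at any time. At 2 and 6 hr the plain ratio was over 2-fold, and only the added 0.1 RPKM brought it under the limit. The 12 leukocyte markers summed to 7.23, 7.40 and 4.54 RPKM with IL-13 and to 8.56, 8.47 and 5.84 RPKM in controls, lower with IL-13 at each time. CD68 and LAPTM5 made up most of these sums, and the other 10 markers summed to 1.34, 1.84 and 1.74 RPKM with IL-13 and to 1.66, 1.89 and 0.842 RPKM in controls, higher with IL-13 at 24 hr. Their part in the NCF1 ratios was not tested.

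CYBA, also called p22phox, was at 123, 153 and 126 RPKM with IL-13, against 131, 152 and 144 RPKM in controls. Its log2 ratios were -0.09, 0.00 and -0.20, inside the range that holds the central 90% of genes at each time. CYBB was at 0.0394, 0.0204 and 0.0330 RPKM with IL-13, against 0.0554, 0.0522 and 0.0171 RPKM in controls, and no difference was detectable at this depth.

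**Figure D2:**
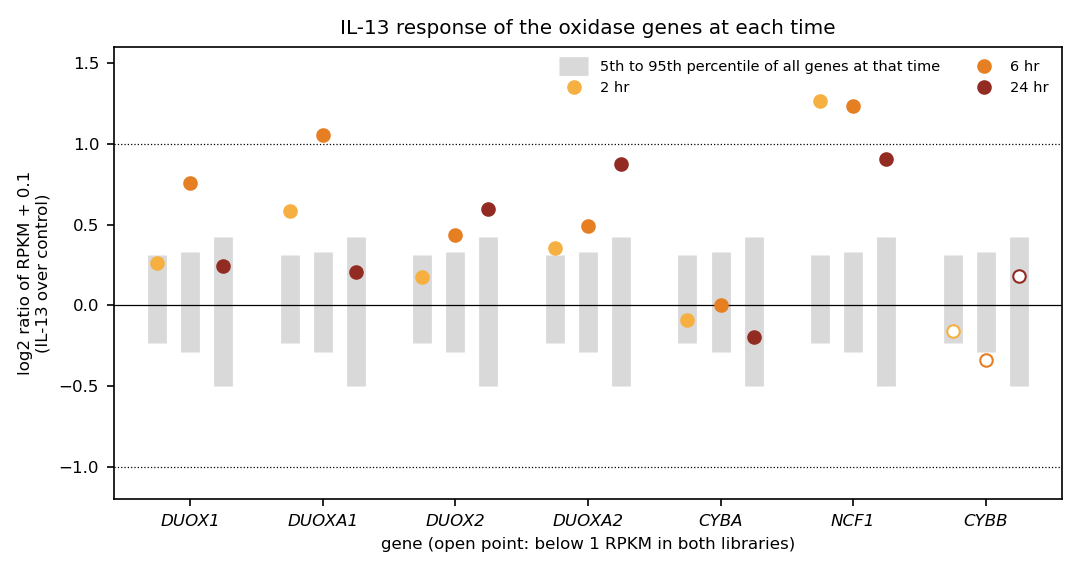
Points give the log2 ratio of RPKM + 0.1, IL-13 over control (vertical axis), of each gene at 2, 6 and 24 hr, grey bars the 5th to 95th percentile of all genes compared at that time, and dotted lines the 2-fold limits. DUOXA1 at 6 hr (1.06) and NCF1 at 2 and 6 hr (1.27 and 1.23) lie past the limit, and the points of CYBA lie inside the grey bars.

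To test the IL-13 effect over the 3 times at once, limma was fitted to log2(RPKM + 0.1) with treatment and time terms for 11953 genes with at least 1 RPKM in at least 3 libraries. At a Benjamini-Hochberg adjusted p of 0.05, limma called 0 genes (0% in either direction), while 2025 genes had an unadjusted p under 0.05 and limma-trend called 6 genes higher (0.0502%) and 0 lower. None of the 6 members tested passed. The limma p-values rest on how far the difference between IL-13 and control varied over the 3 times. For each gene limma draws this spread toward one estimated from all genes fitted. The SE given here are moderated in this way and can be smaller than the spread of the gene alone would give. The spread over the times includes any change of the response with time. It may also be technical, as separate cultures are not stated in the labels. Because the controls at 2 and 6 hr seem to share reads, the 3 differences are not independent and the SE may be too small. For NCF1 the change with IL-13 was 1.13 ± 0.09 (SE) on the log2 scale, higher at each of the 3 times, with a limma p of 0.000166 and an adjusted p of 0.132, at rank 15 by p. Among controls NCF1 reached 1 RPKM only at 24 hr. It thus met the minimum for the fit only through the IL-13 libraries, so its p and rank are not free of that selection. With NCF1 summed over its copies the limma log2 change was 0.80 ± 0.13 with an adjusted p of 0.177.

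DUOXA1 had a limma log2 change of 0.62 ± 0.17 (SE) with an adjusted p of 0.236, and DUOXA2 one of 0.57 ± 0.11 with an adjusted p of 0.190. DUOX1 was at 0.42 ± 0.12 with an adjusted limma p of 0.241, and DUOX2 at 0.40 ± 0.09 with an adjusted limma p of 0.203. Each of these 4 genes was higher at 3 of 3 times. Without the 6 hr pair the limma log2 changes were 0.25 ± 0.08 for DUOX1 and 0.39 ± 0.12 for DUOXA1. CYBA was at -0.10 ± 0.06 with an adjusted limma p of 0.464, lower at 2 of 3 times. The median over all genes was 0.01.

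**Figure D3:**
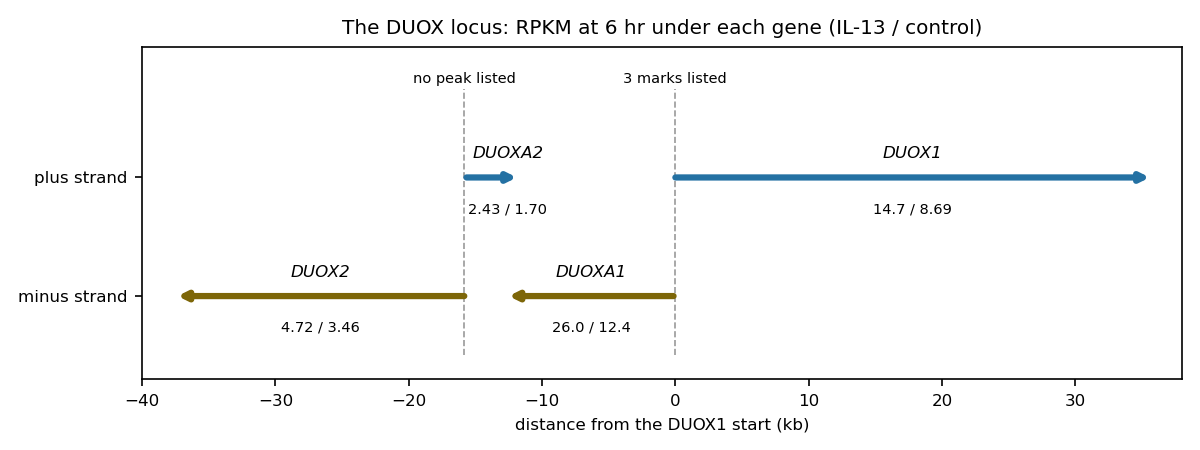
Arrows show the span and direction of the 4 DUOX locus genes by distance from the DUOX1 start (horizontal axis, kb), with plus strand genes above minus strand genes, and the numbers under them are RPKM at 6 hr with IL-13 and in the control. Dashed lines mark the head-to-head starts, of which the DUOX1 and DUOXA1 pair has a listed peak of each of the 3 marks and the DUOX2 and DUOXA2 pair has none.

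The next comparison asks how the genes differed between times within a treatment. The DUOX locus genes and NCF1 were highest at 24 hr in controls and in IL-13 cells alike. Called higher at 24 hr than at 6 hr were DUOX2, DUOXA2 and NCF1 in IL-13 libraries and DUOX1, DUOXA1 and NCF1 in controls, where 14.9% and 16.2% of all genes were called higher. No member was called lower there, against 5.01% of all genes in IL-13 libraries and 6.09% in controls. In IL-13 libraries the log2 ratios of 24 over 6 hr were 1.04 for DUOX2, 1.04 for DUOXA2 and 1.25 for NCF1. In controls they were 1.48 for DUOX1, 1.02 for DUOXA1 and 1.57 for NCF1, which among the controls reached 1 RPKM only at 24 hr. The median of all genes was 0.21 and 0.23 in these pairs, and after centring on it NCF1 in IL-13 libraries and DUOX1 and NCF1 in controls kept a value past 1. From 24 over 2 hr only NCF1 was called, at 1.30 in IL-13 libraries and 1.67 in controls, against 14.8% and 16.4% of all genes, and 0 members were called lower, against 5.47% and 5.66%. With a pseudocount of 1 DUOX1 in controls at 24 over 6 hr was the 1 call left among all these pairs.

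From 6 over 2 hr 0 members were called, against 0.522% of genes higher and 2.9% lower in IL-13 libraries and 0.2% higher and 2.36% lower in controls. DUOX1 had log2 ratios of -0.03 in IL-13 libraries and -0.52 in controls, and DUOX2 of -0.31 in IL-13 libraries and -0.58 in controls. DUOXA1 had 0.33 in IL-13 libraries and -0.14 in controls. CYBA stood at 0.31 in IL-13 libraries and 0.21 in controls. Time and the form of the library, 1 read set at 24 hr and means of 2 earlier, cannot be told apart.

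The ChIP-seq tables ask where active marks differed after 6 hr of IL-13. Of the members, DUOX1, DUOXA1 and CYBA had peaks of each of the 3 marks listed at their starts, and DUOX2, DUOXA2, NCF1 and CYBB had none. DUOX1 and DUOXA1 share their peaks, which are counted once. Among genes of at least 300 bp with a mean of 2 to 6 RPKM at 6 hr, the range of DUOX2 and DUOXA2, 90.6% had a listed H3K27Ac peak, 90.1% an H3K9Ac peak and 86.7% an H3K4me3 peak. In the range of NCF1, 0.1 to 1 RPKM, the shares were 56.1%, 53.0% and 44.6%, and in that of CYBB, below 0.1 RPKM, 15.7% had a listed H3K27Ac peak and 13.4% an H3K9Ac peak. The DUOX2 and DUOXA2 pair was thus without a listed peak at RNA levels where most genes had one. DUOXA2, at 2.43 RPKM with IL-13 and 1.70 RPKM in the control, lay near the lower edge of its range. Its level may also hold reads from the overlap with DUOXA1. From 1 to 2 RPKM the shares were 80.0% for H3K27Ac, 78.5% for H3K9Ac and 72.0% for H3K4me3.

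Neither headers nor labels say which library of a mark was treated. The libraries are therefore named 1 and 2, and M, the log2 ratio of library 1 to library 2, gives no direction for the treatment. The values are those of the authors. At the DUOX1 and DUOXA1 start the H3K27Ac peak had M of -0.87 and a −log10 p of 19.4 in the authors' deposited table, with levels of 275 in library 1 and 503 in library 2. That is 1.83-fold higher in library 2, short of 2-fold, and by −log10 p it ranked at 15 of 12440 peaks that reached the minimum level of 30. By signed M it stood less far out, with 4.66% of those peaks at a lower M. That share counts 1 direction only, and 5.04% of those peaks had M of at least 1 in the other direction. The mean level of the DUOX1 and DUOXA1 peak was above that of 93.3% of those peaks.

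H3K9Ac at the same start had M of -0.51 and a −log10 p of 6.67 in the authors' deposited table, with levels of 248 in library 1 and 353 in library 2. By −log10 p it ranked at 172 of 11968 peaks, while 10.5% of them had a lower M. H3K4me3 had 2 peaks there. The peak common to the libraries had M of 0.43 and a −log10 p of 4 in the authors' deposited table, with levels of 75.8 in library 1 and 56.3 in library 2. The peak listed as unique to library 2 had M of -1.02 and a −log10 p of 1.29 in the authors' deposited table, with levels of 14.8 in library 1 and 30.1 in library 2. It was the 1 member peak past 2-fold, just over the minimum level, and 4.82% of H3K4me3 peaks were called higher in library 2. For H3K27Ac that share was 3.71% and for H3K9Ac 3.59%, with 0 member peaks called. In library 1, where 0 member peaks were called higher, the shares were 5.04% for H3K27Ac, 3.79% for H3K9Ac and 6.02% for H3K4me3. H3K4me3 and the acetyl marks thus had M of opposite sign at the common peak, in libraries whose order may differ between marks.

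CYBA, whose RNA differed little at 6 hr, had M of 0.21 for H3K27Ac, 0.19 for H3K9Ac and -0.60 for H3K4me3 in the authors' deposited table. Its −log10 p was 0.84, 0.83 and 2.85 in the authors' deposited table. The median M of all peaks at the minimum level was 0.08 for H3K27Ac and 0.07 for the other marks.

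**Figure D4:**
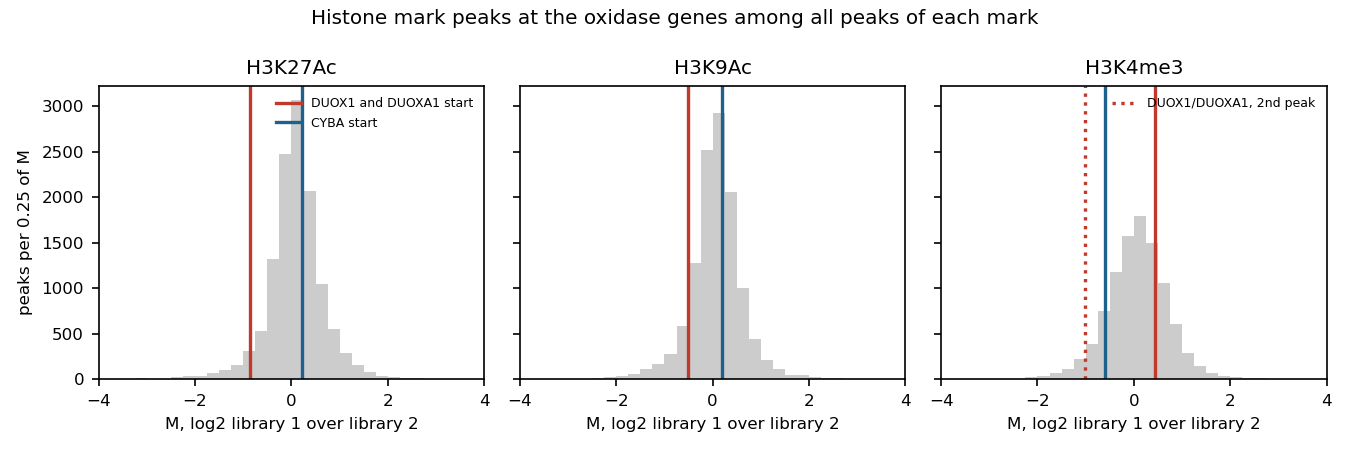
Grey bars count the peaks of each mark that reached the minimum level (vertical axis) by M, the log2 ratio of library 1 over library 2 (horizontal axis), and lines mark the peaks at the DUOX1 and DUOXA1 start and at the CYBA start. The DUOX1 and DUOXA1 line is at -0.87 for H3K27Ac and -0.51 for H3K9Ac, and for H3K4me3 at 0.43 with a dotted line at -1.02 for the additional peak.

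The wider oxidase and peroxide genes were taken as 8 lists of 57 genes, drawn up with earlier results of these data known. Of the 35, 35 and 36 genes that reached 1 RPKM at 2, 6 and 24 hr, 0 were called higher and 0 lower at any time. Their median log2 ratios were -0.04, -0.04 and -0.08, beside 0.00, 0.00 and 0.02 over all genes compared. The other catalytic subunits NOX1, NOX3, NOX4 and NOX5 stayed under 1 RPKM in all libraries, with NOX4 at 0.0871, 0.0776 and 0.114 RPKM with IL-13 and at 0.0341, 0.0345 and 0.0655 RPKM in controls. NOX1 did not exceed 0.148 RPKM, its value with IL-13 at 24 hr, where the control was listed at 0. Among the partners of NOX enzymes, 6 of 8 genes reached the minimum, with medians of 0.00, -0.06 and -0.13. RAC1, the small GTPase, was at 212, 208 and 216 RPKM with IL-13 and at 213, 207 and 218 RPKM in controls. RAC2, the form typical of blood cells, was at 25.5, 25.7 and 26.5 RPKM with IL-13 and at 30.7, 38.1 and 31.6 RPKM in controls, and its limma log2 change was -0.36 ± 0.08 with an adjusted p of 0.20, lower at 3 of 3 times.

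Heme peroxidases, which use hydrogen peroxide, were represented by PXDN and MPO, with medians of -0.25, -0.24 and -0.03. PXDN was at 14.9, 14.1 and 32.9 RPKM with IL-13 and at 14.6, 14.5 and 31.1 RPKM in controls. MPO was at 1.71, 1.81 and 13.2 RPKM with IL-13 and at 2.51, 2.51 and 14.5 RPKM in controls. Its controls at 2 and 6 hr were listed at an identical value, so its ratios and the list medians at those times are not independent. LPO, the lactoperoxidase that DUOX enzymes supply in airway secretions, was listed at 0 in all libraries. Of the hydrogen peroxide removal genes 15 of 19 reached the minimum, with medians of -0.06, -0.03 and 0.01. PRDX1, a peroxiredoxin, was at 492, 589 and 302 RPKM with IL-13 and at 524, 607 and 378 RPKM in controls. TXN, thioredoxin, was at 427, 542 and 394 RPKM with IL-13 and at 348, 389 and 262 RPKM in controls, with a limma log2 change of 0.45 ± 0.07 and an adjusted p of 0.177, higher at 3 of 3 times.

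The superoxide dismutases SOD1 and SOD2 had medians of 0.01, -0.07 and -0.04. SOD1 was at 210, 259 and 169 RPKM with IL-13 and at 219, 262 and 185 RPKM in controls, and SOD2 at 29.4, 31.7 and 33.5 RPKM with IL-13 and at 28.0, 34.6 and 32.5 RPKM in controls. The transcription factor NRF2 (NFE2L2) and its targets had medians of -0.04, -0.03 and -0.13 over 9 genes. NFE2L2 was at 52.3, 48.7 and 122 RPKM with IL-13 and at 52.6, 45.7 and 125 RPKM in controls, and NQO1 at 130, 118 and 109 RPKM with IL-13 and at 137, 124 and 114 RPKM in controls. Of the transport genes, AQP3, a channel that also passes hydrogen peroxide, was at 258, 210 and 502 RPKM with IL-13 and at 241, 191 and 638 RPKM in controls. SLC26A4, SLC26A9, CFTR, SLC5A5 and AQP8 stayed under 1 RPKM.

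**Figure D5:**
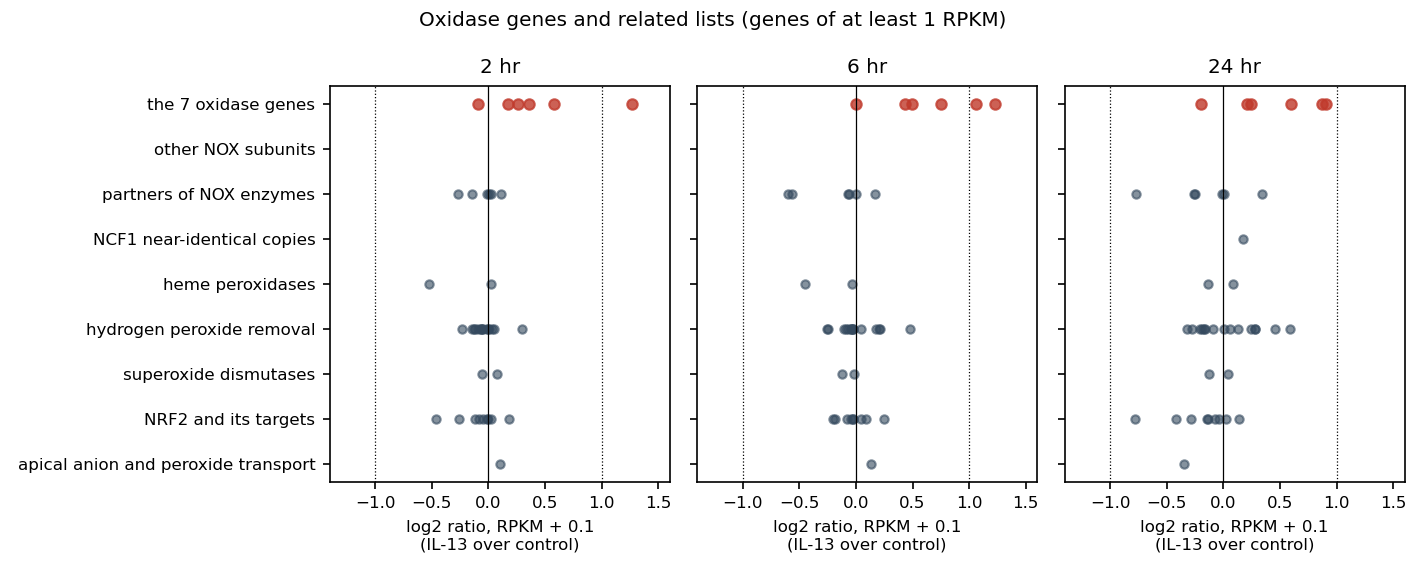
Points give the log2 ratio of RPKM + 0.1, IL-13 over control (horizontal axis), of genes that reached 1 RPKM at 2, 6 and 24 hr, with the oxidase genes in the top row and the related lists below (vertical axis), and dotted lines mark the 2-fold limits. The plotted genes of the related lists, 35, 35 and 36 of 57, stay inside the limits, and NCF1 and DUOXA1 are the members past them.

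The genes whose profile over the 6 libraries was most like that of a member were ranked by Pearson r on log2(RPKM + 0.1) among 11824 genes. The libraries share times, treatments and, at 2 and 6 hr, control reads, and with 6 values high r are common, so this is a description. DUOXA1 was closest to SECTM1 (r = 0.992), ROCK2 (0.991) and PARP12 (0.988), and SECTM1 was at 24.4, 44.3 and 49.4 RPKM with IL-13 and at 8.92, 9.33 and 38.4 RPKM in controls. Among the genes closest to DUOX1 were LOC653075 (0.995) and PPAPDC1B (0.994). DUOX2 was closest to XPR1 (0.998), SECISBP2 (0.998) and CELSR3 (0.990), and DUOXA2 to ZNF131 (0.995), ZNF23 (0.989) and THUMPD1 (0.987). NCF1 was closest to MIB1 (0.997), ZNF22 (0.995) and SMCHD1 (0.994), and CYBA to MTFMT (0.997), C5orf25 (0.993) and KIFC1 (0.991). Between members r was 0.945 for DUOX2 and DUOXA2, 0.933 for DUOX1 and DUOX2, and 0.869 for DUOX1 and DUOXA1. Likeness was not particular to the locus, as NCF1 had r of 0.945 with DUOXA1, 0.936 with DUOXA2, 0.913 with DUOX1 and 0.848 with DUOX2. The partner of a head-to-head pair was not the closest gene, with DUOXA2 at rank 91 for DUOX2, DUOX2 at rank 61 for DUOXA2, DUOXA1 at rank 2079 for DUOX1 and DUOX1 at rank 221 for DUOXA1.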

How the data were processed

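The authors deposited RPKM for 6 RNA libraries and, for each time, log2 ratios with raw and adjusted p-values, per the file headers. Their deposited peak tables give log2 values M and A and a −log10 p per peak. Tools named by the submitters' processing notes are TopHat2 2.0.9, DESeq, Bowtie 1.0.0 and MACS2 2.0.10.20130712, with build hg19. Counting method and annotation: not given in the sources used here. The 6 columns of raw reads per ChIP library, which name no sample, and the input library were not used.

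Ratios were computed on log2(RPKM + 0.1). Peaks were called different at M of 1 or more in size and a level, from M and A, of at least 30, and a peak listed at several starts within 20 kb was counted once. limma 3.58.1 was checked on simulated data. Depth was read from genes under 300 bp, where 91.3% to 95.0% of low values lay within 0.5% of a step, at 24 hr a step of 0.0713 RPKM with IL-13 and 0.0737 RPKM in the control for 1 read in 1 kb. For lack of exon lengths, counting intervals are left out.

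Members and lists were chosen with earlier results of these data known. Named genes are the members, up to 3 genes of a list past the size rule at any time or else its 2 most abundant, and the 3 genes most like each member, of which 1 is not reported here. SLC5A5, the 2nd most abundant transport gene, is given with the others under 1 RPKM. Alternatives were another pseudocount, minimum level, centring, limma-trend, each time left out, no term for time, and for peaks another level and fold. Python 3.11.15, NumPy 2.4.6, pandas 2.3.3, matplotlib 3.10.9 and R 4.3.3 were used.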

Additional observations from a re-analysis of the deposited data

How the results depend on the processing

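Of 357 recomputed values, 328 stayed on the same side of their limit or, as counts, within 1.5 times, 14 fell short of the 2-fold limit, 15 counts moved by more and no called value changed sign. Centring turned the sign of 6 uncalled log2 ratios between times, to -0.04 for DUOXA1 and -0.07 for CYBB at 24 over 6 hr with IL-13, to -0.26 with IL-13 and -0.16 in controls for CYBA at 24 over 2 hr, and to -0.04 with IL-13 and -0.01 in controls for NCF1 at 6 over 2 hr. With a pseudocount of 1 the members called higher with IL-13 numbered 0 at 2 hr and 1 at 6 hr, and with NCF1 summed over its copies, an alternative chosen after seeing the data, also 0 and 1. Between times, a pseudocount of 1 left 0 calls at 24 over 6 hr in IL-13 libraries and 1 in controls, and 0 and 0 at 24 over 2 hr. Centring left 1 call at 24 over 6 hr in IL-13 libraries and 2 in controls. Over all genes limma called 7 higher with a pseudocount of 1 and 6 with limma-trend, in place of 0, and leaving out a time gave 0 to 6 higher and 0 to 1 lower. The 6 and 1 calls came without the 2 hr pair. No member passed in any of these fits, and the limma log2 change of NCF1 was 0.58 with a pseudocount of 1. The adjusted p ranged from 0.0517 to 1.00 for NCF1 and from 0.108 to 1.00 over the DUOX locus genes. With peaks counted from 1.5-fold, H3K27Ac had 1 and H3K4me3 2 member peaks higher in library 2. Among all H3K4me3 peaks at the minimum level, 12.4% had an M below the -0.60 of the CYBA peak. Among those of H3K27Ac, 4.66% had an M below the -0.87 of the DUOX1 and DUOXA1 peak. Shares of all peaks at 1.5-fold, and of all genes called with another pseudocount or centring, were not computed. The time term paired the IL-13 and control libraries of each time, and the fit without it (no replicate block) called 0 genes. The causes of these shifts were not tested.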
